A study of Homo sapiens with 4 samples.

Results

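The 40 genes described here encode lysosomal proteins: membrane proteins, cathepsins, hydrolases, parts of the proton pump V-ATPase and the TFEB family of transcription factors, with GUSBP1, a transcribed pseudogene of GUSB. They were taken by symbol from the 28278 genes of the deposited count table, and all 40 were found and passed the filter on low counts. RNA sequencing was done on A549 cells, an established line from a human lung adenocarcinoma, and the question of the design is which genes change when CBX7, a Polycomb subunit, is overexpressed. The OE_CBX7 group (2 libraries) came from a stable line made by lentiviral infection with a CBX7 expression construct, and the Control group (2 libraries) from a stable line infected with a control construct. Both lines were grown in the same serum-supplemented medium, uninfected cells were not analysed here, and the labels name a single stable line for each construct, with the genotype CBX7 overexpression or WT. The labels do not say whether the lines are clones or name separate cultures behind the libraries of a group, so the p-values reflect spread among these libraries alone, and that spread may be technical.

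Lysosomes are acidic compartments in which proteins, lipids, glycans and nucleic acids are broken down. The V-ATPase pumps protons into them, soluble hydrolases work at the low pH, and heavily glycosylated membrane proteins line and protect the limiting membrane. TFEB, TFE3 and MITF bind E-box motifs in the promoters of many of these genes when they enter the nucleus, which is controlled mainly by phosphorylation downstream of the kinase mTOR.

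Library totals ran from 88861255 to 90765502 counts in OE_CBX7 and from 69877585 to 88091494 in Control. Levels are given as CPM, counts per 1000000 counts of the library after scaling with TMM factors, and 3 counts corresponded to 0.0320 to 0.0440 CPM. CBX7 had 1783 and 1550 counts in OE_CBX7 libraries 1 and 2, against 689 and 596 in Control libraries 1 and 2 (log2 fold change 1.11, edgeR adjusted p = 0.000141), so the labels match the targeted gene. Of 4 epithelial markers, the keratins KRT8 and KRT18 were abundant (KRT18 averaged 4719 CPM in OE_CBX7 and 4700 CPM in Control), while EPCAM had 149 and 145 counts in OE_CBX7, against 56 and 81 in Control, and KRT19 had at most 39 counts in any library. The 7 markers of alveolar type II cells summed to 102 and 98.8 CPM in OE_CBX7, against 66.8 and 87.7 CPM in Control. ABCA3 made up most of that sum and was called higher (log2 fold change 0.38, edgeR adjusted p = 0.0445), as was NKX2-1 (1.61, adjusted p = 0.0489). SFTPD and NAPSA went the other way and were not called (log2 fold changes -6.39 and -0.38). SFTPD had 0 and 0 counts in OE_CBX7, against 11 and 8 in Control. SFTPA1, SFTPB and SFTPC had at most 24 counts in any library. Throughout, log2 fold changes are OE_CBX7 over Control and adjusted p-values are from edgeR's quasi-likelihood test with Benjamini-Hochberg adjustment over 17271 tested genes. Genes with an adjusted p under 0.05 are termed called. CPM values of 2 libraries are given as library 1 and library 2 of the group named.

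The lysosomal genes did not move as a block. LAMP3 nearly disappeared from the OE_CBX7 libraries, at 222-fold lower, and CD68 was 6.85-fold lower, while the general lysosomal markers LAMP1, LAMP2 and CD63 differed by at most 1.09-fold. Of 40 members, 14 were called (35%), against 24.4% of all tested genes. CTSA, CTSD, CTSF, CTSH, CTSV, GAA and ASAH1 were higher (7 of 40, against 10.5% of all genes called higher), and LAMP3, CD68, SCARB2, CTSL, CTSO, LIPA and MITF were lower (7 of 40, against 13.9%). Falls of 2-fold or more were called in LAMP3, CD68, CTSL and CTSO (4 of 40, against 5.36% of all genes), and no rise reached 2-fold (against 2.11%). The median log2 fold change over the 40 members was 0.08, beside 0.00 over all tested genes. The groups did not overlap in 27 of 40 members, against 62.8% of all genes.

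All 7 members called lower, and CTSD, CTSF and GAA among those called higher, kept their call and direction in each of the 11 other settings tried. The other 4 rises lost their call in some fits with 1 library left out, at adjusted p of up to 0.243 for CTSA, 0.324 for CTSH, 0.111 for CTSV and 0.253 for ASAH1. Over those 4 fits their log2 fold changes ran from 0.26 to 0.42 for CTSA, 0.38 to 0.73 for CTSH, 0.45 to 0.48 for CTSV and 0.27 to 0.35 for ASAH1. The count of members called higher was 4 without OE_CBX7 library 1 and 3 without OE_CBX7 library 2, and that of all genes was 1021 and 1121 in the same fits, against 1809 with all libraries. Library totals in place of TMM gave 55.0% of all calls as higher, against 43.0% with TMM, and 9 members higher and 7 lower.

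**Figure D1:**
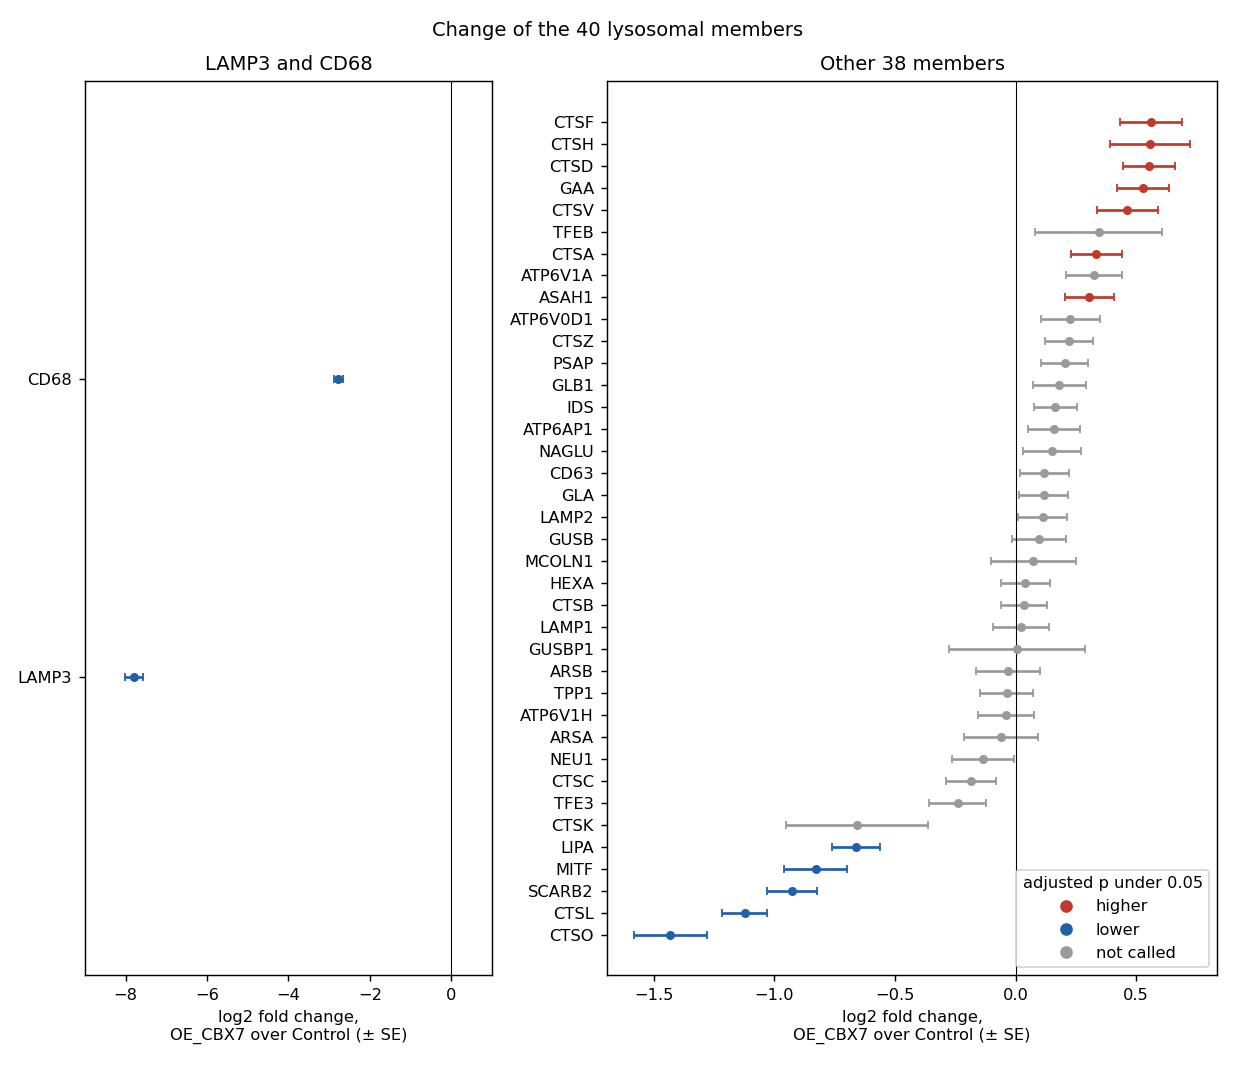
Log2 fold change of each member, OE_CBX7 over Control, with its standard error (SE) from the edgeR fit, and LAMP3 and CD68 on a wider axis at the left. Red and blue points passed an adjusted p of 0.05; LAMP3 stands at -7.79 and CD68 at -2.78, while the other 38 lie between -1.43 and 0.56.

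The 6 membrane proteins ranged in log2 fold change from -7.79 to 0.12, and 3 were called, all lower (50%, against 24.4% of all tested genes called and 13.9% called lower). LAMP3 (chromosome 3, 183122215 to 183163813, GRCh38), also called DC-LAMP, is a LAMP family protein of mature dendritic cells and type II pneumocytes and is known as an interferon-induced gene. It had 19 and 28 counts in OE_CBX7, against 5600 and 3344 in Control, which is 0.203 and 0.310 CPM against 65.0 and 49.0 CPM. Both OE_CBX7 libraries were therefore above the level of 3 counts but far below either Control library (log2 fold change -7.79, SE 0.230, adjusted p = 9.27e-12). Because so few counts remain, the size of the fall is less certain than its presence: with 1 library left out it ran from -8.11 to -7.51.

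CD68 (chromosome 17, 7579638 to 7582111, GRCh38), known as macrosialin, belongs to the same family and is widely used as a macrophage marker. It had 2205 and 2129 counts in OE_CBX7, against 13614 and 11251 in Control, which is 23.5 and 23.6 CPM against 158 and 165 CPM. The replicates lay close together within each group and the groups were wide apart (log2 fold change -2.78, SE 0.111, adjusted p = 2.10e-10). In GENCODE 29, which may not be the annotation used for counting, 81.7% of the exon bases of CD68 are shared with a same-strand processed transcript that has no row in the count table.

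SCARB2 (LIMP-2), the receptor that carries glucocerebrosidase to lysosomes, was the remaining membrane protein to fall. It was at 220 and 213 CPM in OE_CBX7, against 447 and 375 CPM in Control (log2 fold change -0.93, SE 0.104, adjusted p = 1.77e-05), with no overlap between the groups. The structural glycoproteins were not called. LAMP1 was at 106 and 106 CPM in OE_CBX7, against 93.2 and 116 CPM in Control, so that the Control libraries lay on either side of the OE_CBX7 libraries (adjusted p = 0.922). LAMP2, which also serves chaperone-mediated autophagy, was at 141 and 133 CPM in OE_CBX7, against 133 and 121 CPM in Control (adjusted p = 0.485). CD63, a tetraspanin of late endosomes and exosomes, had the most counts of the membrane proteins over the 4 libraries together, although SCARB2 had more in both Control libraries. It was at 348 and 364 CPM in OE_CBX7, against 305 and 351 CPM in Control (adjusted p = 0.435).

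**Figure D2:**
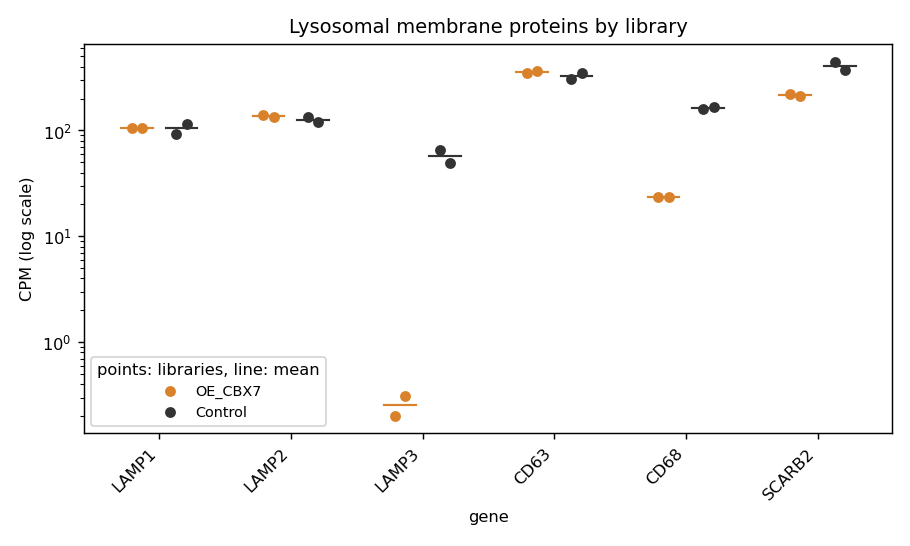
CPM of the 6 membrane proteins in each library on a log scale, with OE_CBX7 left of Control, points for libraries and lines for group means. LAMP3 falls to 0.257 CPM on average in OE_CBX7 and CD68 to 23.6 CPM, whereas LAMP1, LAMP2 and CD63 overlap between the groups.

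LAMP3 and CD68 were set against the other lysosomal genes by scaling each library with the median ratio over the other 38 members, so that a fold change is relative to them. On that scale LAMP3 changed by -7.90 (SE 0.285, edgeR adjusted p = 1.77e-07) and CD68 by -2.87 (SE 0.116, adjusted p = 3.34e-07), and both values were lower in 2 of 2 OE_CBX7 libraries than in either Control library. The log2 ratio of LAMP3 CPM to the median CPM of the 38 genes was -8.79 and -8.19 in OE_CBX7, against -0.16 and -0.75 in Control. For CD68 it was -1.93 and -1.94 in OE_CBX7, against 1.12 and 1.00 in Control. Scaling by LAMP1, LAMP2, CD63 and SCARB2 alone gave -7.82 for LAMP3 and -2.79 for CD68. In this relative fit CTSD, CTSF and GAA were called higher and the same 7 members lower; as a setting for the count of members it was added after the data were seen.

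Levels of different genes can be compared only per length, for which the exon bases of GENCODE 29 were used as an approximation. On CPM per kilobase CD68 ranked 4 of 40 in Control, at 73.8, and 23 of 40 in OE_CBX7, at 10.8. LAMP3 ranked 40 of 40 in OE_CBX7, at 0.0673 CPM per kilobase, and 19 of 40 in Control, at 14.9. PSAP ranked first in both groups, at 357 in OE_CBX7 and 310 in Control. The summed counts of the 40 members made up 0.523% and 0.523% of the library total in OE_CBX7, against 0.515% and 0.542% in Control, so the total hardly differed while its make-up did.

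Both genes mark myeloid cells in tissue, so markers of such cells were looked at beside them. Of 10 macrophage markers, 7 had fewer than 50 counts in every library, and the leukocyte gene PTPRC had 9 and 0 counts in OE_CBX7, against 6 and 0 in Control. Their summed level was 4.46 and 3.53 CPM in OE_CBX7, against 8.92 and 7.43 CPM in Control, below the level of CD68 alone in every library. Within the list ITGAM fell (log2 fold change -2.70), CD14 rose (1.10), and FCGR1A, called lower, had 0 and 0 counts in OE_CBX7, against 34 and 29 in Control. Of 8 markers of mature dendritic cells, CD86, CCL19 and CCL22 had 0 counts in all libraries, and the list summed to 2.88 and 1.59 CPM in OE_CBX7, against 6.71 and 5.33 CPM in Control. CD83 was the called member of that list (log2 fold change -1.92, edgeR adjusted p = 0.00897). It was at 2.16 and 0.732 CPM in OE_CBX7, against 6.20 and 4.78 CPM in Control. The other tested members, CCR7 and ITGAX, went the other way and were not called (log2 fold changes 1.14 and 0.43). The libraries are bulk RNA of stable A549 lines, not of tissue. In such RNA, fewer cells expressing a gene and less RNA per cell cannot be told apart. Interferon response genes moved the same way as LAMP3 and CD68. All 10 listed genes were called lower, against 13.9% of all tested genes, with log2 fold changes from -10.44 (OAS2) to -3.76 (OAS1). The list was chosen with earlier results of these data known. The part of these genes in the falls of LAMP3 and CD68 was not tested.

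Among the member transcription factors, the RNA of MITF fell and that of TFEB and TFE3 was not called. MITF, best known from melanocytes and osteoclasts, was at 16.3 and 18.3 CPM in OE_CBX7, against 31.2 and 30.2 CPM in Control (log2 fold change -0.83, SE 0.130, adjusted p = 0.000363), with the groups well apart. TFEB, the factor most closely tied to lysosome formation, was scarce, at 4.77 and 3.97 CPM in OE_CBX7, against 3.82 and 3.06 CPM in Control (log2 fold change 0.34, adjusted p = 0.391). TFEC, counted here with the mTORC1 and TFEB control genes, had 9 and 0 counts in OE_CBX7, against 41 and 18 in Control. It was not called (log2 fold change -2.90, edgeR adjusted p = 0.146). TFE3 had the most counts of the family, at 89.8 and 91.4 CPM in OE_CBX7, against 95.4 and 119 CPM in Control (log2 fold change -0.24, adjusted p = 0.165). TFE3 was called lower only without Control library 1 (log2 fold change -0.39, edgeR adjusted p = 0.0211), and these are RNA levels, which do not measure how much factor is in the nucleus.

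The promoters of the members were searched for the motif these factors bind, since the called genes move in both directions. RefSeq promoter windows of assembly GRCh38.p14, from 250 bases before to 50 bases after the start, were matched by symbol for 27 of 40 members. Windows were not used for LAMP2, LAMP3, CTSB, CTSK, CTSO, HEXA, NAGLU, GUSBP1, ASAH1, PSAP, ARSA, ATP6V1A and ATP6V1H. The E-box CACGTG, which reads the same on both strands, was in 9 of 27 member windows (33.3%), against 9.66% of windows of tested genes and 7.43% of all windows. The longer TCACGTG, searched on both strands and always overlapping the shorter motif, was in 8 of 27 (29.6%), against 5.5% of tested genes and 3.82% of all windows. Because these factors are known to bind E-boxes in many lysosomal promoters, a higher share in members was foreseeable and does not bear on CBX7. By call, the E-box was in 4 of 6 windows of members called higher (CTSA, CTSD, CTSF and GAA, but not CTSH and CTSV). It was in 0 of 5 windows of members called lower (CD68, SCARB2, CTSL, LIPA and MITF) and in 5 of 16 windows of members not called (LAMP1, CD63, NEU1, MCOLN1 and ATP6V0D1). The core of interferon response elements, searched as GAAA, any 2 bases and GAAA again on either strand, was in 0 of 27 member windows, against 3.14% of tested genes. With a share that low among tested genes, 0 of 27 windows says little, and LAMP3 had no window to search. These matches describe letters in a window of a single annotated start per gene, and MITF and others have further starts.

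The stretches around the motif are shown for the 4 higher genes, and for MCOLN1 and ATP6V0D1, which hold it but were not called. They run 5′ to 3′ on the strand of the gene and end before its start, with the matches in capitals (bases that TCACGTG adds on either strand included).
CTSA (chr20:45891267-45891334, plus strand): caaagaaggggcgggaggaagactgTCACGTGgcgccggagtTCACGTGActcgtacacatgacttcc
CTSD (chr11:1763943-1763999, minus strand): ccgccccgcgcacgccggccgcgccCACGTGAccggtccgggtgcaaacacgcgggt
CTSF (chr11:66568627-66568754, minus strand): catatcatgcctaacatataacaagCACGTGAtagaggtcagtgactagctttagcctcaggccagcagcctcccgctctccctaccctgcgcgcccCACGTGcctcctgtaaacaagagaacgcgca
GAA (chr17:80101479-80101580, plus strand): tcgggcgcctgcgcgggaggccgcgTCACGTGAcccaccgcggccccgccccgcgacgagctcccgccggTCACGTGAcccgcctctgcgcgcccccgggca
MCOLN1 (chr19:7522557-7522623, plus strand): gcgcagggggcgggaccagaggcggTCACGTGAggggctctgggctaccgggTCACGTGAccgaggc
ATP6V0D1 (chr16:67481185-67481242, minus strand): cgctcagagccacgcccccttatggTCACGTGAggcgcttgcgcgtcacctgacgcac
CTSA, CTSF, GAA and MCOLN1 each hold 2 E-boxes in the window, and CTSD and ATP6V0D1 hold 1. LAMP1, which is not shown and was not called (log2 fold change 0.02), holds 6, the most of any member window. CD63 and NEU1, also neither shown nor called, hold 1 each. GAA, which rose, and MCOLN1, which was not called, each carry a pair of 8-base palindromes. No test was made of motif against call.

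**Figure D3:**
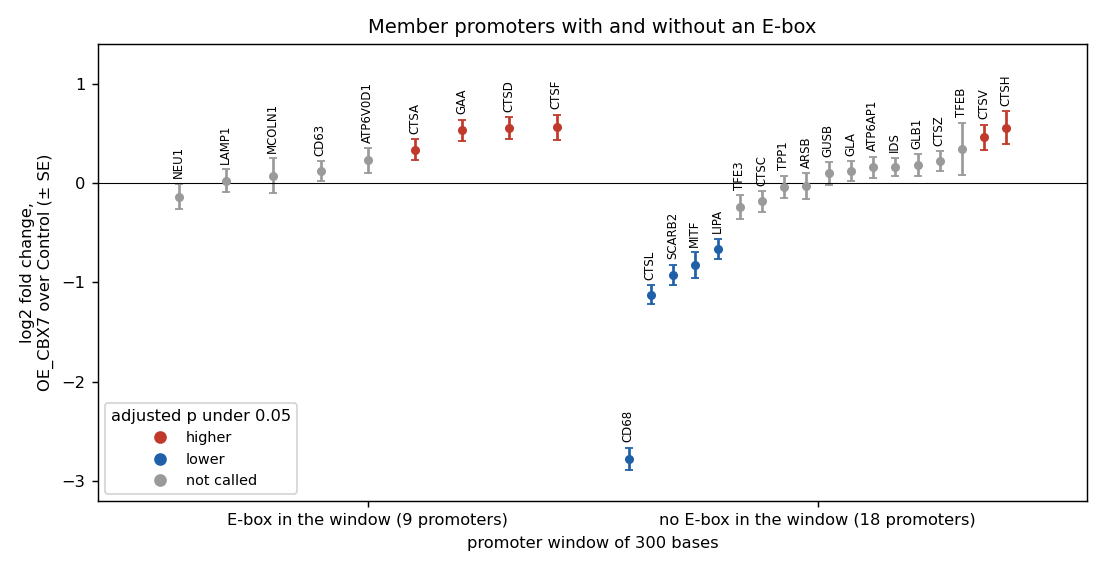
Log2 fold change (OE_CBX7 over Control, ± SE) of the 27 members with a promoter window, split by whether the window holds an E-box. All 5 members called lower that have a window, CD68 the lowest at -2.78, are among the 18 without the motif, and members with it range from -0.14 (NEU1) to 0.56 (CTSF). LAMP3 and CTSO, also called lower, have no window here, and motif against call was not tested.

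Cathepsins, the lysosomal proteases, changed in both directions, and 7 of 11 members were called (63.6%, against 24.4% of all tested genes), 5 higher and 2 lower. CTSS, a cathepsin that the rule for members leaves out, was also called lower (log2 fold change -2.11) and is described with the other hydrolases. CTSL (chromosome 9, 87726119 to 87731469, GRCh38), a broadly active cysteine protease that also primes viral glycoproteins for entry, averaged 247 ± 2.90 CPM in OE_CBX7 and 538 ± 1.70 CPM in Control (SD, n = 2 each). The replicates were nearly equal and the groups far apart (log2 fold change -1.12, SE 0.0926, adjusted p = 8.06e-07). CTSO, a cysteine protease of little-studied function, was at 7.59 and 7.84 CPM in OE_CBX7, against 21.2 and 20.4 CPM in Control (log2 fold change -1.43, SE 0.150, adjusted p = 9.12e-06).

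CTSD (chromosome 11, 1752755 to 1763927, GRCh38), the main lysosomal aspartic protease, rose. It was at 319 and 330 CPM in OE_CBX7, against 197 and 245 CPM in Control (log2 fold change 0.55, SE 0.108, adjusted p = 0.00206). In GENCODE 29, 41.7% of the exon bases of CTSD are shared with a same-strand protein-coding entry and 15.8% with an antisense entry. Neither has a row in the count table. CTSF, a cysteine protease, was at 32.1 and 32.8 CPM in OE_CBX7, against 20.1 and 23.9 CPM in Control (log2 fold change 0.56, adjusted p = 0.00595). CTSH, an aminopeptidase that processes surfactant protein in the lung, was at 15.0 and 19.2 CPM in OE_CBX7, against 12.3 and 11.0 CPM in Control (log2 fold change 0.56, adjusted p = 0.0244). The 3 genes rose by similar factors, but CTSH rested on libraries that were further apart. CTSA, a carboxypeptidase that also stabilises the sialidase NEU1 and the galactosidase GLB1, averaged 120 ± 5.25 CPM in OE_CBX7 and 95.3 ± 7.16 CPM in Control (SD, n = 2 each), with a log2 fold change of 0.33 and an edgeR adjusted p of 0.0347. Its exons overlap those of NEURL2 on the opposite strand over 17.7% of their bases in GENCODE 29, but NEURL2 had at most 44 counts in any library.

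CTSV, the closest relative of CTSL, moved the other way. It was at 26.5 and 26.9 CPM in OE_CBX7, against 19.2 and 19.6 CPM in Control (log2 fold change 0.46, SE 0.126, adjusted p = 0.0164). The ratio of CTSL to CTSV counts was thus 9.22 and 9.25 in OE_CBX7, against 27.9 and 27.5 in Control. How reads shared by the 2 genes were divided is not given in the sources used here, which leaves their exact levels uncertain. Per kilobase, CTSL and CTSD were level in OE_CBX7, at 104 and 104 CPM per kilobase, whereas in Control CTSL stood at 227 and CTSD at 70.7.

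Of the cathepsins, 4 were not called. CTSB, an abundant cysteine protease with the most counts over the 4 libraries together (CTSL had more in both Control libraries), was at 402 and 398 CPM in OE_CBX7, against 370 and 411 CPM in Control (log2 fold change 0.04, adjusted p = 0.845). CTSZ and CTSC, exopeptidases, had log2 fold changes of 0.22 and -0.19 (adjusted p of 0.124 and 0.225). CTSK, the collagen-degrading protease of osteoclasts, was the scarcest, at 1.97 and 2.93 CPM in OE_CBX7, against 3.94 and 3.78 CPM in Control. Its log2 fold change of -0.66 is as large as that of called members, but with an SE of 0.296 it did not pass (adjusted p = 0.128).

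**Figure D4:**
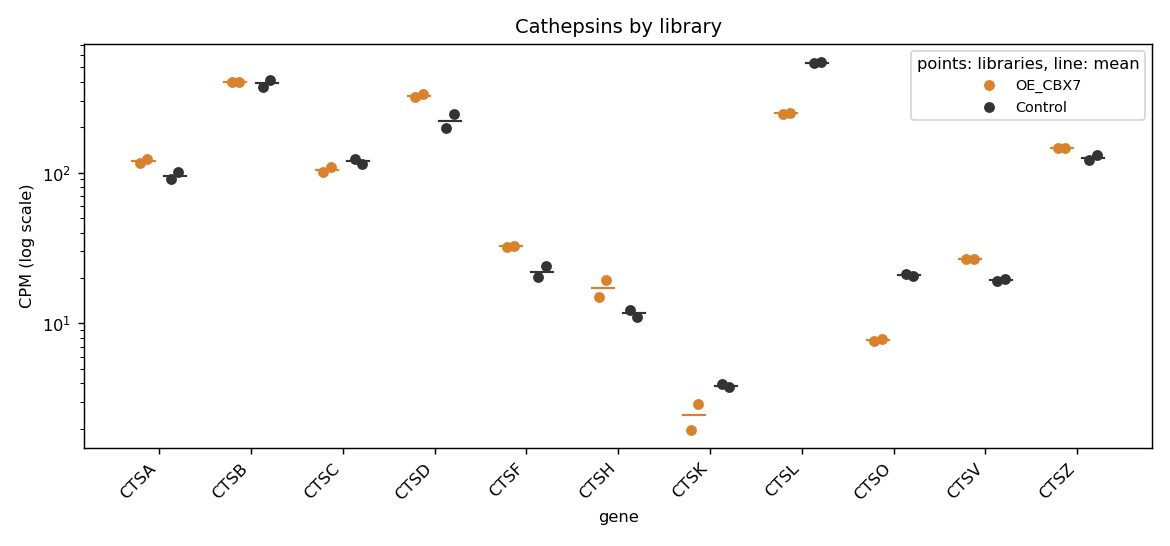
CPM of the 11 cathepsins in each library on a log scale, with OE_CBX7 left of Control, points for libraries and lines for group means. CTSL and CTSO lie lower in OE_CBX7, at 247 and 7.72 CPM on average, while CTSA, CTSD, CTSF, CTSH and CTSV lie higher.

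The glycosidases, which remove sugars from glycoproteins, glycolipids and glycogen, were called in 1 of 7 cases (14.3%, against 24.4% of all tested genes). GAA, the acid glucosidase that breaks down glycogen and is deficient in Pompe disease, was at 109 and 110 CPM in OE_CBX7, against 71.6 and 80.5 CPM in Control (log2 fold change 0.53, SE 0.108, adjusted p = 0.00273). HEXA, a hexosaminidase subunit and the glycosidase with the most counts, was at 148 and 167 CPM in OE_CBX7, against 150 and 157 CPM in Control (adjusted p = 0.835). GLA, GLB1, GUSB, NAGLU and NEU1 had log2 fold changes of -0.14 to 0.18, with adjusted p of 0.269 to 0.601. GUSB, a glucuronidase, averaged 50.4 ± 0.540 CPM in OE_CBX7 and 47.1 ± 3.81 CPM in Control (SD, n = 2 each). Its pseudogene copy GUSBP1 was at 3.28 and 3.41 CPM in OE_CBX7, against 2.82 and 3.85 CPM in Control (log2 fold change 0.01, adjusted p = 0.994). Several GUSB copies share sequence, so the split of reads between GUSB and GUSBP1 is uncertain.

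Among the lipid-handling members, LIPA fell and ASAH1 rose. LIPA, the acid lipase that frees cholesterol and fatty acids from lipoproteins, was at 136 and 141 CPM in OE_CBX7, against 232 and 206 CPM in Control (log2 fold change -0.66, SE 0.0994, adjusted p = 0.000262). The span RefSeq gives for LIPA (chromosome 10, 89213572 to 89414679, GRCh38) takes in IFIT2, IFIT3 and IFIT1, interferon-induced genes, and GENCODE 29 has 65 exon bases shared by LIPA and IFIT2 on opposite strands. IFIT2 had 477 and 375 counts in OE_CBX7, against 118576 and 70738 in Control (log2 fold change -8.03, adjusted p = 9.27e-12). The strandedness of the libraries is not given in the sources used here, and the part of such reads in the LIPA counts was not tested. ASAH1, the acid ceramidase, was at 123 and 120 CPM in OE_CBX7, against 101 and 95.8 CPM in Control (log2 fold change 0.30, adjusted p = 0.0428). PSAP, the precursor of the saposins that help hydrolases reach lipids, was the most abundant member, at 1138 and 1176 CPM in OE_CBX7, against 937 and 1074 CPM in Control (log2 fold change 0.20, adjusted p = 0.158).

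None of the 3 sulfatases, the tripeptidyl peptidase TPP1 or the calcium channel MCOLN1 was called, against 24.4% of all tested genes called. IDS, the iduronate sulfatase, had the most counts of these, at 257 and 245 CPM in OE_CBX7, against 223 and 225 CPM in Control (log2 fold change 0.16, adjusted p = 0.212). ARSA and ARSB had log2 fold changes of -0.06 and -0.03 (adjusted p of 0.833 and 0.903). TPP1 was at 62.6 and 57.2 CPM in OE_CBX7, against 59.0 and 63.9 CPM in Control (adjusted p = 0.863). MCOLN1, the channel that releases lysosomal calcium, was at 12.7 and 10.4 CPM in OE_CBX7, against 10.1 and 11.9 CPM in Control (adjusted p = 0.822). For all of them the libraries of the groups overlapped, apart from IDS, whereas the groups did not overlap in 62.8% of all tested genes.

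The V-ATPase parts were not called either, although 3 of 4 had higher means in OE_CBX7. ATP6AP1, an accessory subunit, was at 129 and 131 CPM in OE_CBX7, against 107 and 125 CPM in Control (log2 fold change 0.16, adjusted p = 0.319). ATP6V1A, the catalytic subunit, came closest to the threshold, at 83.1 and 76.5 CPM in OE_CBX7, against 69.0 and 58.5 CPM in Control (log2 fold change 0.32, adjusted p = 0.0583). It passed in 7 of 11 other settings, with DESeq2 and limma-voom among them (adjusted p of 0.0323 and 0.0419). ATP6V0D1 and ATP6V1H, subunits of the membrane and the cytosolic sector, had log2 fold changes of 0.23 and -0.04. Of the 19 tested subunits that are not members, ATP6V0E2 and ATP6V0A1 were higher, with 0 lower and 17 not called. That is 10.5% called, against 24.4% of all tested genes, with a median log2 fold change of 0.02. ATP6V0E2, of the membrane sector, was at 62.2 and 70.7 CPM in OE_CBX7, against 41.4 and 48.5 CPM in Control (log2 fold change 0.56, adjusted p = 0.00369).

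Other lysosomal genes, listed by function, were counted in the same fit. Over 5 lists, 22 of 132 tested genes were higher and 9 lower (23.5% called, against 24.4% of all genes), with a median log2 fold change of 0.06. Of 35 tested hydrolases, 5 were higher and 1 lower (17.1% called, against 24.4% of all genes). The lower gene was CTSS, a cathepsin of antigen-presenting cells, at 10.3 and 12.9 CPM in OE_CBX7, against 61.2 and 38.7 CPM in Control (log2 fold change -2.11, SE 0.223, adjusted p = 0.000236). DPP7 and GGH, peptidases, rose by 0.44 and 0.45 on the log2 scale. Of 27 other membrane proteins, 6 were higher and 4 lower (37% called, against 24.4% of all genes). The 3 with the smallest p-values were the two-pore channel TPCN1 (log2 fold change 0.68), the endosomal protein LITAF (0.53) and the sialomucin CD164 (-0.66).

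Genes that deliver hydrolases to lysosomes were higher in 4 of 28 cases and lower in 1 (17.9% called, below the 24.4% of all tested genes). SORT1 and IGF2R, receptors that carry hydrolases from the Golgi, had log2 fold changes of 0.52 and 0.41 (adjusted p of 0.00449 and 0.00820), and AP3S1, of the AP-3 coat, fell (log2 fold change -0.61, adjusted p = 0.00126). The other two that rose, named after their values were seen, were GNPTAB and GNPTG, subunits of the enzyme that makes the mannose 6-phosphate tag (log2 fold changes 0.47 and 0.48). M6PR, which like IGF2R is a receptor for that tag, and NAGPA, which completes it, were not called (log2 fold changes -0.09 and 0.15, adjusted p of 0.538 and 0.569).

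In the list for mTORC1 and TFEB control, 5 of 23 genes were higher and 3 lower (34.8% called, against 24.4% of all tested genes, of which 10.5% were higher and 13.9% lower). The 3 that fell are known from nutrient signalling at the lysosome. RRAGC, a Rag GTPase, was at 21.6 and 17.9 CPM in OE_CBX7, against 39.6 and 37.0 CPM in Control (log2 fold change -0.96, SE 0.131, adjusted p = 0.000117). FLCN, folliculin, which acts on RRAGC and RRAGD, was at 20.6 and 21.9 CPM in OE_CBX7, against 39.0 and 37.9 CPM in Control (log2 fold change -0.86, SE 0.120, adjusted p = 0.000144). FNIP1, the partner of FLCN, was at 24.7 and 22.8 CPM in OE_CBX7, against 44.7 and 34.2 CPM in Control (log2 fold change -0.73, adjusted p = 0.00185). The 5 that rose, named after their values were seen, were the Ragulator subunits LAMTOR1, LAMTOR2 and LAMTOR4, the mTOR partner MLST8 and TSC2, with log2 fold changes of 0.33 to 0.47.

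**Figure D5:**
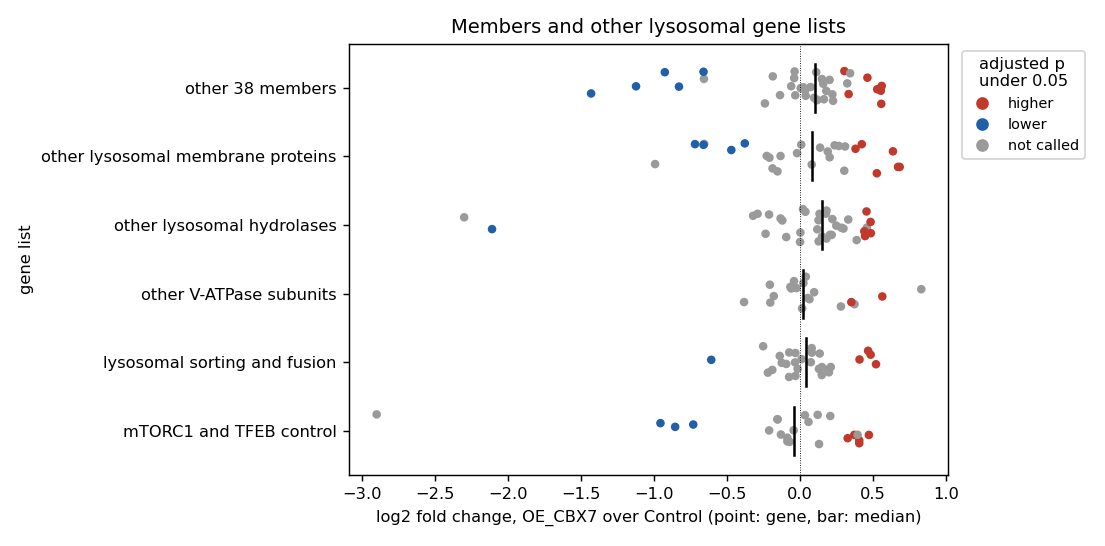
Log2 fold change (OE_CBX7 over Control) of each tested gene in the other 38 members and in 5 lists of other lysosomal genes, with a bar at each median. The medians lie between -0.04 and 0.15, and called genes stand on both sides in every list except the V-ATPase subunits.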

How the data were processed

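The authors deposited 1 table of estimated counts per gene and library for 4 A549 libraries, as whole numbers. HISAT2 2.2.1, StringTie 2.2.1, DESeq2 and the build hg38 are named, per the submitters' processing notes, with no role given. The sources used here do not give annotation, strandedness or the treatment of shared reads. The values were already whole, so rounding changed none.

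In edgeR 4.0.16 (R 4.3.3), filterByExpr removed genes with low counts, TMM set the scale, and a robust quasi-likelihood model of group, with no covariate, was fitted to the 4 libraries. The code was tested on simulated data. SEs were derived from the fold change and its F statistic. For LAMP3 and CD68 against the other members, TMM was replaced by median ratios over the other 38 members. Alternatives were other scalings and count filters, DESeq2 1.42.0, limma-voom (limma 3.58.1), a replicate block and each library left out. Positions and promoters came from RefSeq (GRCh38.p14), exon lengths from GENCODE 29.

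The 2 libraries of a group were not duplicates: their counts gave a chi-square per degree of freedom of 42.3 in OE_CBX7 and 54.2 in Control. The members and lists were chosen with earlier results of these data known. By rule, full values are given for LAMP3, CD68, the TFEB family, the member of each role with the most counts, called members that changed by at least 0.5 on the log2 scale, and genes with near-identical copies, and up to 3 called genes are named per other list. Further genes were named after their values were seen. Fits of 1 library against 2 assume that the lone library varies like the others.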

Additional observations from a re-analysis of the deposited data

How the results depend on the processing

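LAMP3 stayed between -8.11 and -7.51 and CD68 between -2.80 and -2.71 on the log2 scale over 11 other settings, and relative to the other members between -8.22 and -7.60 and between -2.93 and -2.79, called in each. With 1 library left out, 1021 to 1790 of all genes and 3 to 7 members were called higher, and 1689 to 2134 genes and 7 to 8 members lower; these fits have fewer libraries. Scaling by the other 38 members, chosen after seeing the data, gave 886 genes and 3 members higher. The library numbers are not stated to pair libraries, and same-numbered libraries deviated together only weakly (correlation 0.108, 2 pairs). A fit with a replicate block called 9 members higher and 7 lower (2100 and 2503 of all genes), with LAMP3 at -7.78 and CD68 at -2.78. Of the 14 called members, 10 kept their call in all 11 settings. Of the 26 uncalled members, 21 were called in none of them, and 5 (CTSZ, PSAP, ATP6V0D1, ATP6V1A and TFE3) in at least 1. The reversals were in uncalled members near 0. Library totals turned ARSA to 0.0069, ARSB to 0.036, TPP1 to 0.031 and ATP6V1H to 0.026, a shift that goes with the rise of 0.07 in the median of all genes, and a mean count of 50 or more turned GUSBP1 to -0.00061. Leaving out 1 library gave ranges of -0.12 to 0.19 for LAMP1, -0.036 to 0.12 for CTSB, -0.043 to 0.13 for HEXA and -0.20 to 0.25 for GUSBP1. The ranges were -0.24 to 0.15 for ARSA, -0.20 to 0.13 for ARSB, -0.10 to 0.036 for TPP1, -0.078 to 0.22 for MCOLN1 and -0.14 to 0.062 for ATP6V1H; the cause was not tested. Depth limits LAMP3 in OE_CBX7, which rests on 47 counts in all, and with 2 libraries a group the smallest p of an exact permutation test is 0.333.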
